A study of Mus musculus with 6 samples.

Results

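The genes described here build the contractile apparatus of smooth muscle and were chosen by name. They are *Acta2*, *Tagln*, *Tagln2*, *Cnn1*, *Cnn2*, *Cnn3*, *Myl9*, *Tpm1*, *Tpm2* and *Cald1*, 10 of the 37074 gene names on the arrays, measured by 25 of 56605 probes. All 10 genes had at least 1 probe bright enough to test. Marrow cells were turned into osteoclasts in cultures from 3 Ano1fl/fl mice (control) and 3 Ctsk-Cre;Ano1fl/fl littermates (cKO), with RANKL, the cytokine that drives osteoclast formation, given for 5 days. Both groups carry the floxed *Ano1* alleles, and only the cKO mice carry Cre, which is driven by the cathepsin K gene and so acts in cells that have turned that gene on. For marrow donors in general the methods give an age of 6 to 8 weeks. RNA of each culture was read on its own one-colour array.

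Smooth muscle contracts when myosin filaments pull on actin filaments built with smooth muscle actin, and the step is switched on by phosphorylation of the regulatory light chain of myosin. Transgelin, the calponins, tropomyosins and caldesmon lie along the actin filaments and steady them or hold the myosin back. The same genes are active in myofibroblasts, pericytes and other stromal cells, where serum response factor (SRF) with its actin-sensing partners, TEAD factors with YAP and TAZ, and TGF-beta signalling drive many of them. Osteoclasts come from the monocyte lineage, and the podosomes with which they hold on to bone are also built of actin.

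Of the 59305 transcript spots on each array, 33480 to 34951 stood well above background, and 0 were saturated. Signals are given as quantile normalized log2 intensities, with n = 3 arrays per group throughout, and the number of arrays limits their precision. Over all genes tested, arrays of the same group had a Pearson correlation between 0.995 and 0.997, and arrays of different groups between 0.947 and 0.951. The probe for *Ano1* was well above background on 0 of 6 arrays, with a difference of 0.05 on the log2 scale, so it could not serve to check the labels, and every direction below rests on them. Markers of osteoclasts bear on the cell type, and all 14 were tested. In cKO cultures 13 were higher and 1 was lower, where 23.4% of all genes tested were higher and 29.0% were lower. The direction of these markers is opposite to the one the study gives, by other assays, for such markers in cKO osteoclasts. If the array labels were exchanged, every direction below would turn, and an exchange was not tested. In bulk RNA, fewer cells of a type and less RNA per cell cannot be told apart.

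Most of the contractile genes were higher in cKO cultures. Read by its brightest probe, *Tagln* was 33.8-fold higher, *Cald1* 14.2-fold, *Tpm2* 14.0-fold, *Cnn3* 9.97-fold, *Myl9* 3.06-fold, *Acta2* 1.46-fold and *Cnn2* 1.39-fold, and *Cnn1* was at least 11.3-fold higher. *Tagln2* and *Tpm1* did not pass the test. In all, 8 of 10 genes were higher and 0 were lower at an adjusted p under 0.05 (limma, Benjamini-Hochberg over all 20645 genes tested), where 23.4% of all genes tested were higher and 29.0% were lower. At an unadjusted p under 0.05 in limma the count of lower genes was also 0. A rise of more than 2-fold with the same test was met by 6 of the 10, against 9.88% of all genes. The arrays of the groups did not overlap in 8 of the 10, against 64.0% of all genes. The median difference, cKO minus control, was 2.47 on the log2 scale for the 10 genes and -0.06 for all genes tested. The median of the members was 1.70 with normexp background correction, 2.04 from the deposited matrix, 1.92 with the mean of the probes of a gene, and 1.62 over the 9 members, 7 of them higher, that were well above background on all 6 arrays. *Cnn1*, the member left out there, passed the filter on dim probes through the cKO group alone.

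**Figure D1:**
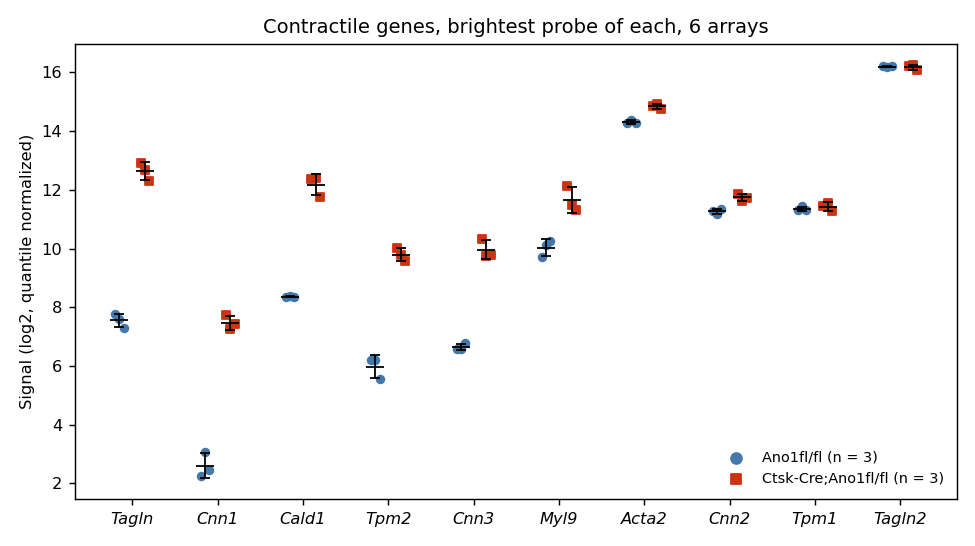
Signal of the brightest probe of each contractile gene (log2, quantile normalized) on the 3 control arrays (blue circles) and the 3 cKO arrays (red squares), with black bars for the mean and SD. The groups lie apart in 8 of the 10 genes, against 64.0% of all genes tested, and overlap in *Tpm1* and *Tagln2*. The 3 control values of *Cnn1* are not well above background, and levels of different probes cannot be set against each other.

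*Acta2* encodes the alpha actin of smooth muscle, the actin isoform by which smooth muscle and myofibroblasts are usually recognised. Its brightest probe, A_51_P450957, reads the transcript from base 335, and its mm9 position, chr19:34322995-34326249, spans an intron, so it lies across an exon junction. Its signals were 14.27, 14.38 and 14.28 on the control arrays and 14.86, 14.93 and 14.76 on the cKO arrays. The cKO arrays were all above the control arrays, by 0.54 ± 0.08 (SE) on the log2 scale (limma, adjusted p = 0.0018).

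The other *Acta2* probes showed larger differences. Probe A_52_P420504 starts at base 1278 of the same transcript (chr19:34316060-34316119) and gave 9.74, 9.49 and 9.33 on the control arrays and 13.43, 13.18 and 12.87 on the cKO arrays, a rise of 3.64 ± 0.17 (SE), or 12.4-fold (limma over probes, adjusted p = 2.9e-05). Probe A_52_P210078 starts at base 1641 (chr19:34315697-34315756). On no control array was it well above background, and it gave 8.29, 8.30 and 7.77 on the cKO arrays, at least 17.8-fold higher (adjusted p = 2.3e-04), and its fitted difference of 5.39 became 2.32 with normexp background correction. A lower limit of this kind compares the mean of the brighter group with the dimmest signal that still counted as well above background on each array of the other. The fourth probe, A_52_P644232, designed on a separate cDNA clone, was on no array well above background. So the size of the rise depended on the probe: within an array, A_52_P420504 minus A_51_P450957 was -4.95 to -4.53 on control arrays and -1.90 to -1.43 on cKO arrays. That difference of differences was 3.10 (exact two-sided permutation test over arrays, p = 0.1 and adjusted p = 0.1 over 3 pairs of probes chosen after their values were seen). With 3 arrays against 3, 0.1 is the smallest p this test can give.

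The first 30 bases of the 3 tested *Acta2* probes, read from the array files, are shown because the probes disagree in size:
A_51_P450957: atcatcaccaactgggacgacatggaaaag
A_52_P420504: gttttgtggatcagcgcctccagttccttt
A_52_P210078: acactgacttcacagctagagtgactattt
Each probe is 60 bases long. Laid against every probe for another actin gene without gaps, A_52_P420504 had at most 27 bases in common, with an *Actb* probe, and A_51_P450957 at most 24, with an *Acta1* probe. This compared probes with probes and not with whole transcripts, so it cannot tell whether an *Acta2* probe matches another actin transcript. Cross-hybridization itself was not tested.

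Transgelin, encoded by *Tagln* and also called SM22 alpha, bundles actin filaments and is among the earliest markers of smooth muscle. Its only probe (A_51_P450527, chr9:45738097-45738156) gave 7.76, 7.59 and 7.30 on the control arrays and 12.90, 12.68 and 12.31 on the cKO arrays. Every cKO array was above every control array, by 5.08 ± 0.19 (SE) on the log2 scale (limma, adjusted p = 1.6e-05). *Tagln2* encodes transgelin-2, a form abundant in blood cells. Its brighter probe gave 16.21, 16.17 and 16.21 on the control arrays and 16.22, 16.24 and 16.09 on the cKO arrays, and the groups overlapped. The difference was -0.02 ± 0.07 (SE, adjusted p = 0.855), and the second probe for *Tagln2* gave -0.16 ± 0.11 (SE, adjusted p = 0.271 over probes). Measured within each array, the gap between *Tagln* and *Tagln2* moved by 5.10 between the groups, and its ranges did not overlap, from -8.91 to -8.45 on control arrays and from -3.78 to -3.31 on cKO arrays. This and 5 other pairs of related genes were each compared with an exact two-sided permutation test, and each gave p = 0.1 (adjusted p = 0.1 over the 6 pairs), again the smallest possible.

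Calponins bind actin and restrain the myosin motor. *Cnn1*, which encodes the calponin of smooth muscle, gave 2.26, 3.08 and 2.46 on the control arrays, none of them well above background, and 7.73, 7.26 and 7.43 on the cKO arrays. It was at least 11.3-fold higher in cKO cultures (limma, adjusted p = 3.6e-05). The fitted difference of 4.87 was smaller under other treatments of the background, 1.86 with normexp correction and 2.51 from the deposited matrix of uncorrected spot medians, and the call stood under both. A second *Cnn1* probe was well above background on 1 cKO array and on 0 control arrays, and it was not tested.

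*Cnn3* encodes acidic calponin, which is not confined to muscle. It gave 6.57, 6.58 and 6.77 on the control arrays and 10.33, 9.75 and 9.79 on the cKO arrays, a rise of 3.32 ± 0.17 (SE, adjusted p = 4.6e-05), or 2.68 with normexp correction. Its other probe, A_55_P2136145, was on no array well above background. *Cnn2*, the calponin found in macrophages as well as in muscle, gave 11.27, 11.18 and 11.34 against 11.87, 11.62 and 11.72, a rise of 0.48 ± 0.09 (SE, adjusted p = 0.0063). On both, every cKO array was above every control array, as in 64.0% of all genes tested. Within the arrays the gap between *Cnn2* and *Cnn3* moved by -2.84 between the groups (exact permutation p = 0.1). The gaps of *Cnn1* to the other calponins have no settled size, since its control values are not well above background. With normexp correction the order of *Cnn1* and *Cnn3* turned, at 1.86 and 2.68, as it did in the deposited matrix, at 2.51 and 2.97.

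Tropomyosins are coiled coils that run along the actin filament and set which proteins may bind it. *Tpm2*, the beta tropomyosin gene, was read by probe A_55_P2121408, labelled with the variant Tpm2.3. The signals were 6.19, 6.20 and 5.54 on the control arrays and 10.01, 9.78 and 9.56 on the cKO arrays, a rise of 3.81 ± 0.21 (SE, adjusted p = 6.1e-05). The other *Tpm2* probe, labelled Tpm2.2, was on no array well above background. With normexp background correction the rise of *Tpm2* was 2.79.

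*Tpm1*, the alpha tropomyosin gene, had 4 probes, all well above background on all 6 arrays. Probe A_66_P105457 is annotated with transcripts of both A_55_P2078680 and A_55_P2187053 among others, so it does not stand for a single variant, while the latter probes share no listed RefSeq accession with each other. In that order they differed by 0.07, 0.01 and -0.01 on the log2 scale, with adjusted p over probes of 0.573, 0.940 and 0.942. The groups overlapped on each of these probes. The fourth probe, A_65_P17289 (chr9:66877029-66877088), designed on a cDNA clone, fell by 0.53 ± 0.12 (SE, adjusted p = 0.0108), and it was the single member probe that was lower. The array files list no RefSeq accession for it. The gap between *Tpm1* and *Tpm2* moved by -3.73 between the groups, from 5.11 to 5.78 on control arrays and from 1.45 to 1.78 on cKO arrays (exact permutation p = 0.1).

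*Cald1* encodes caldesmon, which binds actin, myosin and tropomyosin and slows the motor in its unphosphorylated state. Its brightest probe (A_66_P105683, chr6:34725339-34725398) gave 8.34, 8.38 and 8.34 on the control arrays and 12.35, 12.41 and 11.77 on the cKO arrays, a rise of 3.82 ± 0.17 (SE, adjusted p = 2.9e-05). Other probes rose too: A_52_P513153 by 3.69 ± 0.20 (SE), with 2 of 3 control arrays well above background, and A_52_P599578 at least 9.32-fold from a level not well above background. With normexp correction these rose by 1.91 and 1.49. Probe A_55_P2620849 (chr6:34612629-34612688), on a transcript known by an Ensembl accession, did not share this. Its difference was -0.22 ± 0.09 (SE) and did not pass the test (adjusted p = 0.081), although its groups did not overlap. The difference between this probe and the brightest one moved by 4.05 between the groups (exact permutation p = 0.1). Probe A_66_P109065 was on no array well above background.

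*Myl9* encodes the regulatory light chain of smooth muscle myosin, the protein whose phosphorylation starts contraction. It gave 9.70, 10.12 and 10.25 on the control arrays and 12.14, 11.47 and 11.30 on the cKO arrays, a rise of 1.62 ± 0.25 (SE, adjusted p = 0.0027). The groups did not overlap. A second probe, which the design file does not place on the genome, was on no array well above background.

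Counted by probe, 19 of the 25 could be tested. Of these, 12 were higher and 1 was lower in cKO cultures (limma over 31848 probes, adjusted p under 0.05), where 21.8% of all probes tested were higher and 30.6% were lower. Of the 12, 4 were not well above background on every control array and could pass the filter only through the cKO group. Where all 6 arrays had to be well above background, 8 probes were higher. The other 6 probes were too dim. The rule of taking the brightest probe therefore matters for several genes. Where the probes of a gene were averaged, the difference was 2.39 for *Acta2*, 2.20 for *Cald1*, 3.10 for *Cnn1*, 1.73 for *Cnn3*, 0.81 for *Myl9* and 2.11 for *Tpm2*, and the same 8 genes passed. These means include probes that were never above background.

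**Figure D2:**
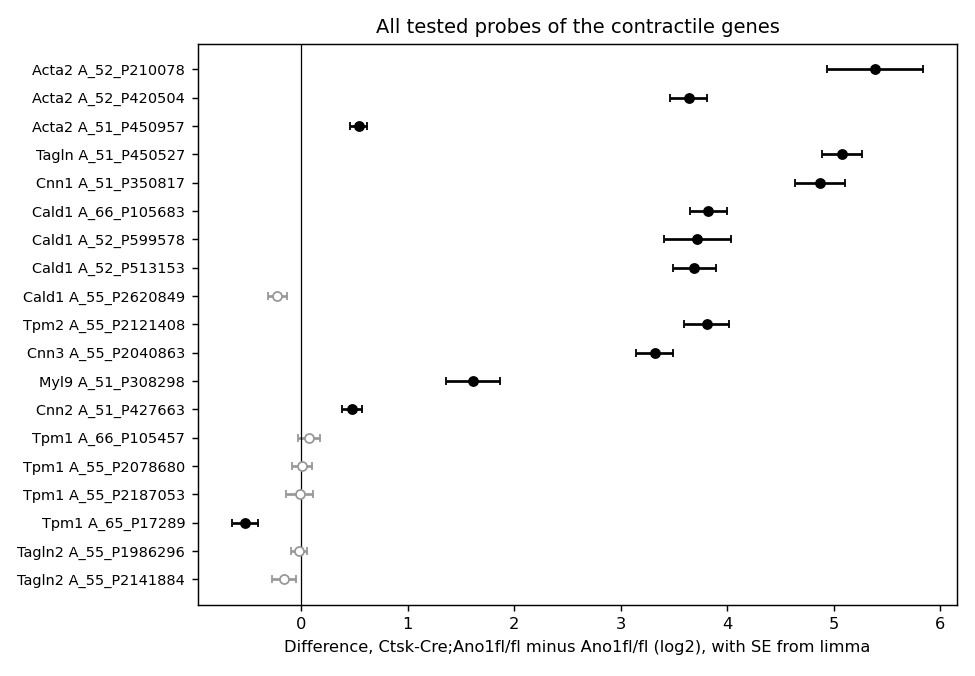
Difference between the groups (cKO minus control, log2, horizontal axis) for the 19 tested probes of the contractile genes, with SE from limma. Filled points passed at an adjusted p under 0.05 and open points did not; the *Acta2* probes well above background on all 6 arrays lie at 0.54 and 3.64, and the *Acta2* probe at the top, like those of *Cnn1* and *Cald1* that are dim on control arrays, is a fitted value with only a lower limit.

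The arrays within the cKO group were not alike. Replicate 3 was the lowest of the cKO arrays on 16 of the 19 member probes and the highest on 0, with a median deviation of -0.17 from the group mean. Replicate 1 was the highest on 9 and replicate 2 on 10. Markers of fibroblasts and stromal cells had the same array at the bottom in 13 of 16 genes, with a median deviation of -0.34, and replicate 1 at the top in 13 of 16. Replicate 3 was also the lowest cKO array in 18 of 25 other genes of the contractile apparatus, 13 of 19 in their transcription and 9 of 13 macrophage markers, against 0 of 10 neutrophil markers. Without replicate 3 of the cKO group, the counts were again 8 genes higher and 0 lower.

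Each of these genes belongs to a family, and the other members of those families were read from the same fit. Among the 6 actins, 5 were higher in cKO cultures, against 23.4% of all genes tested. *Actc1*, the cardiac alpha actin, rose by 2.26 (adjusted p = 7.7e-05), *Actg2*, the gamma actin of smooth muscle, by 0.50 (adjusted p = 0.0052) and *Actg1*, a cytoplasmic actin, by 0.39 (adjusted p = 0.008). *Acta1*, the actin of skeletal muscle, reached no level well above background on the control arrays and was at least 4.69-fold higher. *Actb*, the cytoplasmic beta actin, gave 17.74, 17.70 and 17.66 on the control arrays and 17.82, 17.87 and 17.87 on the cKO arrays, and its difference of 0.16 did not pass (adjusted p = 0.086). Of the tropomyosins that are no members, *Tpm4* rose by 0.41 (adjusted p = 0.0049) and *Tpm3* gave -0.12 (adjusted p = 0.233). Of the light chains of nonmuscle myosin, *Myl12a* rose by 0.36 (adjusted p = 0.0132) and *Myl12b* gave -0.14 (adjusted p = 0.103). *Tagln3*, the transgelin of neurons, was on no array well above background.

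**Figure D3:**
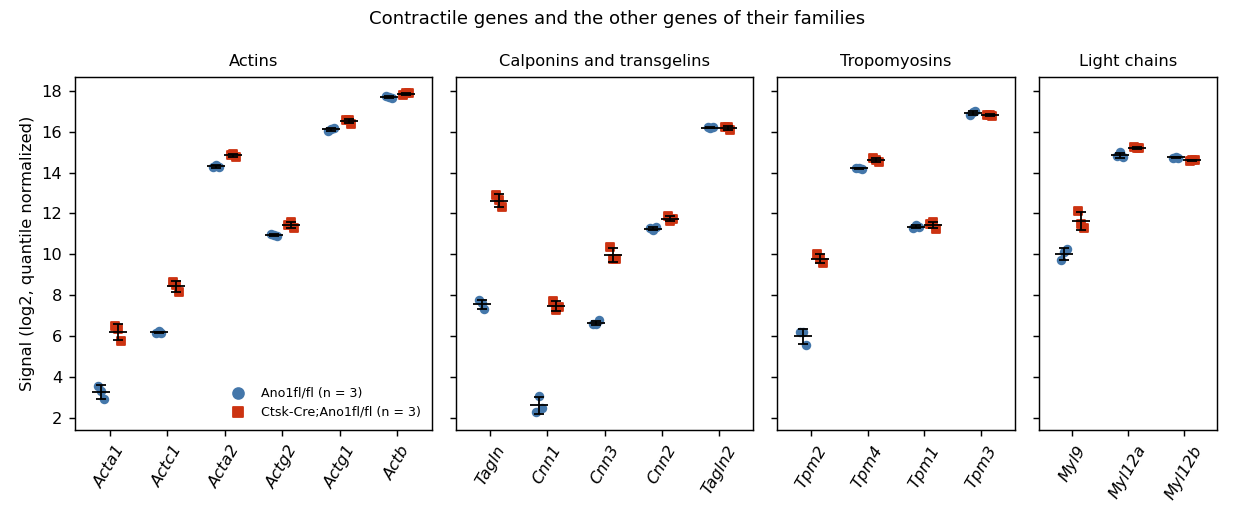
Signals (log2, quantile normalized) of the contractile genes and of the other genes of their families on the 3 control arrays (blue circles) and 3 cKO arrays (red squares), with black bars for the mean and SD. In the actins the groups lie apart in all 6 genes, as they do in 64.0% of all genes tested. This includes *Actb*, whose difference of 0.16 did not pass the test. Levels of different probes cannot be compared.

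A list of 28 other genes of the contractile apparatus was less uniform. In this list 25 were tested, 11 were higher, 3 were lower and 11 did not pass, with a median difference of 0.19, where 23.4% of all genes tested were higher and 29.0% were lower. The largest rises were those of *Myh10*, a nonmuscle myosin heavy chain (2.33, adjusted p = 6.9e-04, with 2 of 3 control arrays well above background), and *Tgfb1i1*, a focal adhesion protein also called Hic-5 (2.28, adjusted p = 3.8e-04). The genes that fell were *Itga8*, an integrin subunit (-1.82), *Smtn*, which encodes smoothelin (-0.76), and *Pdlim5*, a scaffold at the Z-disc (-0.34). *Des*, *Lmod1* and *Synm*, which encode desmin, leiomodin and synemin, were on no array well above background. *Myh11*, the myosin heavy chain that defines mature smooth muscle, gave 5.80, 5.77 and 5.43 on the control arrays and 5.23, 5.10 and 5.48 on the cKO arrays, and its difference of -0.39 did not pass (adjusted p = 0.058).

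Of 18 genes that set the phosphorylation of the myosin light chain, 14 were tested, 5 were higher and 5 were lower, with a median of -0.10, beside 23.4% higher and 29.0% lower among all genes tested. *Arhgef12*, an activator of RhoA, rose by 1.08, *Mylk*, the myosin light chain kinase, by 0.80 and *Ppp1r14a*, an inhibitor of myosin phosphatase, by a fitted 0.90 with 1 of 3 control arrays well above background. *Ppp1r12b* and *Ppp1r12a*, targeting subunits of myosin phosphatase, gave -1.23 and -0.33, and *Calm2*, a calmodulin gene, gave -0.38. All 6 passed limma at adjusted p between 3.8e-04 and 0.014. *Pln* and *Kcnmb1*, which encode phospholamban and a potassium channel subunit of smooth muscle, were on no array well above background.

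Of 23 genes that act in the transcription of contractile genes, 19 were tested, 9 were higher, 3 were lower and 7 did not pass. Their median was 0.18, and 23.4% of all genes tested were higher and 29.0% were lower. *Fhl2*, a LIM protein that can bind SRF, rose by 4.53 (5.70, 5.29 and 5.43 on the control arrays against 10.36, 9.98 and 9.66), *Wwtr1*, which encodes TAZ, by 4.23 with 2 of 3 control arrays well above background, and *Tead1* by 4.01. *Srf* itself gave 9.90, 10.06 and 10.06 against 10.08, 10.16 and 10.08, and its difference of 0.10 did not pass (adjusted p = 0.312). *Mkl1*, which encodes a myocardin-related cofactor of SRF, was lower by a difference of -0.35, *Elk3* by -0.82 and *Klf2* by -0.26. *Myocd*, the cofactor particular to smooth and cardiac muscle, was on no array well above background, nor were *Gata6*, *Hey2* and *Tead4*.

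Targets of SRF and of YAP that lie outside muscle did not all go the same way. Of 12 tested, 8 were higher and 2 were lower, where 23.4% of all genes tested were higher and 29.0% were lower. Their median was 0.99, or 0.88 with genes below background in 1 group at their lower limit. *Ctgf* gave 7.90, 7.66 and 7.05 on the control arrays and 13.45, 13.11 and 13.08 on the cKO arrays, a rise of 5.68 (adjusted p = 2.2e-05). *Cyr61* rose by 4.95 (adjusted p = 4.6e-05), and *Ankrd1* was at least 2.17-fold higher from a level not well above background. *Egr1*, an immediate early gene named here after its value was seen, was well above background on all 6 arrays and rose by 3.14 (adjusted p = 1.9e-04). *Fos*, also an immediate early gene, gave -1.52 (adjusted p = 7.1e-05) and *Axl*, a receptor kinase, -0.75 (adjusted p = 0.0033).

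Markers of the other cells that marrow cultures can hold were read from the same fit. Of 16 markers of fibroblasts and stromal cells, 13 were higher and 1 was lower. Among all genes tested, 23.4% were higher and 29.0% were lower. The median difference of the 16 was 3.73, or 3.58 with genes at their lower limit. All 16 were well above background on every cKO array, but only 12 on every control array. The others passed the filter on dim probes through the cKO group alone. *Col1a1* rose by 6.12, *Postn* by a fitted 6.50 with 1 of 3 control arrays well above background, and *Lum* was at least 22.7-fold higher. *S100a4*, which macrophages express as well, was the 1 that fell, from a mean of 17.9 to 16.2, and it gave 97.6% to 97.9% of the summed linear signal of the list on control arrays and 45.3% to 45.8% on cKO arrays. That sum was 246297 to 265203 on control arrays and 138429 to 215017 on cKO arrays. Without *S100a4* the sum of the other 15 was 5521 to 6008 on control arrays and 75748 to 117648 on cKO arrays. None of the 16 was below background on all arrays. The part of such cells in the rise of the contractile genes was not tested.

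Of 11 markers of pericytes and vascular smooth muscle, 8 were tested, 4 were higher and 2 were lower, with a median of 0.38. Among all genes tested, 23.4% were higher and 29.0% were lower. The summed signal of the 11 markers was 38473 to 44705 on control arrays and 52250 to 68757 on cKO arrays. *Mcam* alone gave at least 95.3% of that sum on every array. *Pdgfrb* rose by 3.85 and *Notch3* by 1.21, *Ndufa4l2* was at least 3.61-fold higher, and *Kcnj8* and *Higd1b* gave -0.81 and -0.35. The defining markers *Rgs5*, *Des* and *Abcc9* were on no array well above background. Of 9 osteoblast markers 4 were tested. *Col1a1* and *Alpl* were higher, *Alpl* by 5.52, *Runx2* was lower at -0.46 (limma, adjusted p = 0.049), and *Sp7* did not pass the test. These calls stand beside the same shares over all genes tested. On control arrays *Sp7* gave the largest part of the summed signal of the list, 42.1% to 45.3%. *Ibsp*, *Dmp1* and *Phex* were on no array well above background, and the sum over the 9 was 320 to 413 on control arrays and 8661 to 14223 on cKO arrays, where *Col1a1* gave 83.5% to 90.4% of it.

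Of 10 markers of megakaryocytes and platelets, which hold contractile proteins of their own, 9 were lower and 0 were higher (0 also at an unadjusted p under 0.05 in limma), with a median of -1.28. Their summed signal was 128048 to 146779 on control arrays and 55476 to 64275 on cKO arrays, with at least 83.9% of it from *Pf4* on every array, *Ppbp* and *Gp9* gave -1.72 and -1.68, and *Tubb1* was at least 3.59-fold lower. These and the next counts stand beside 23.4% higher and 29.0% lower among all genes tested. Among 9 tested markers of striated muscle, 3 were higher, *Acta1* and *Actc1* among them, and 2 were lower, with a sum of 118615 to 133627 against 113381 to 118671, of which *Tpm3* gave at least 97.4% on every array. *Ckm*, *Myog*, *Myh1* and *Mb* were on no array well above background. Of 7 tested endothelial markers 1 was higher and 2 were lower, with *Pecam1* at 0.91 and *Kdr* at -1.32, and *Tek* was on no array well above background. The sum of the 9 endothelial markers was 6751 to 8329 on control arrays and 3500 to 4081 on cKO arrays. Of 13 macrophage markers 1 was higher and 6 were lower, with a sum of 658806 to 701122 against 637984 to 705064. Of 10 neutrophil markers 1 was higher and 7 were lower, with a sum of 320315 to 337289 against 212422 to 264896. The 14 osteoclast markers summed to 222980 to 240666 on control arrays and 624289 to 706342 on cKO arrays.

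**Figure D4:**
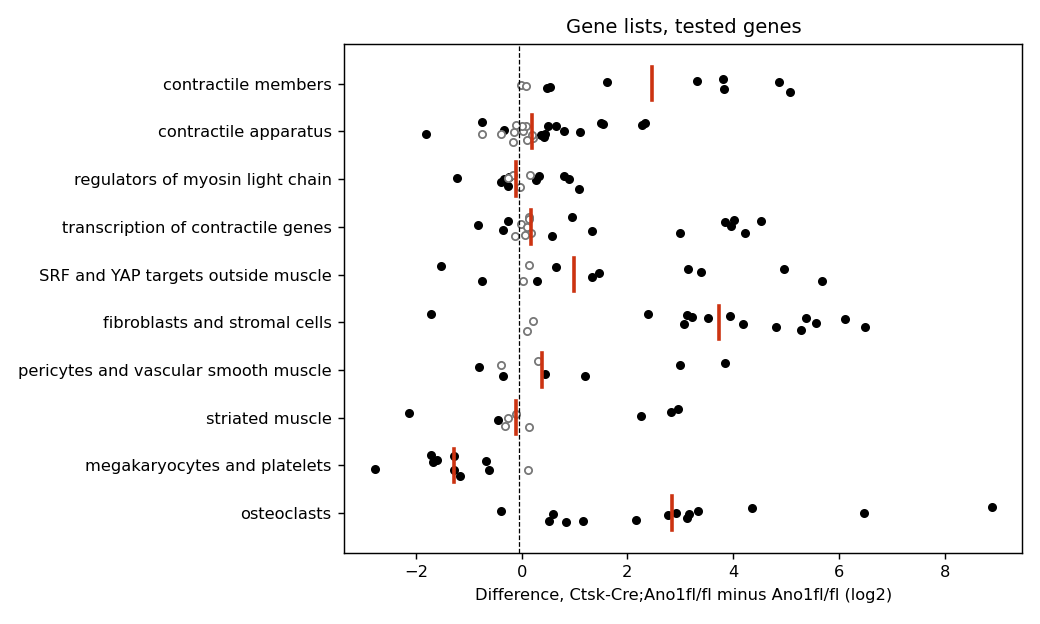
Difference between the groups (cKO minus control, log2, horizontal axis) for the tested genes of the contractile list and of 9 other lists. Each point is a gene, filled where it passed at an adjusted p under 0.05, the red bar is the list's median and the dashed line is the median of all genes tested (-0.06); the contractile genes have a median of 2.47, or 1.70 with normexp correction, and the stromal markers of 3.73.

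The genes whose signals followed *Acta2* and *Tagln* most closely were found by the root mean square distance over the 6 arrays, each gene centred on its own mean. For the brightest probe of *Acta2* they were *Git1* (0.028), *Riok3* (0.030) and *Rars* (0.031), whose differences between the groups were 0.52, 0.54 and 0.51. For *Tagln* they were *Fstl1* (0.050), *Adamts2* (0.073) and *Fkbp10* (0.081), with differences of 5.11, 4.96 and 5.12. This distance is set mainly by the size of the difference between the groups. The gap between *Acta2* and *Tagln* within an array moved by -4.54 with the brightest *Acta2* probe (exact permutation p = 0.1) and by -1.44 with A_52_P420504, which is also well above background on all 6 arrays, so its size depends on the *Acta2* probe.

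The sequence before the start sites was searched because SRF binds the CArG box and TEAD factors bind the MCAT element. RefSeq promoter sequence on GRCm38.p6 matched 9 of the 10 symbols by 10 windows, and *Tagln* has no entry. In the 250 bases before the start the consensus CArG box, which is 2 C, 6 A or T and 2 G, stood at 1 place each in *Myl9* and *Cnn2* and in 1.47% of all 32851 promoters. With 1 deviation allowed in its core, a search added after the values were seen, it also stood at a second place in *Myl9* and at 2 places in *Acta2*, and in 8.59% of all promoters. These places are shown with 10 bases on each side, on the strand of the gene and with the box in capitals:
Myl9, 161 bases before the start, chr2:156775293-156775322, plus strand: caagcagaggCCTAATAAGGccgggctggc
Myl9, 99 bases before the start, chr2:156775355-156775384, plus strand: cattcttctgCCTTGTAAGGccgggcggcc
Cnn2, 56 bases before the start, chr10:79988534-79988563, plus strand: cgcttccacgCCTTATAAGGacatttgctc
Acta2, 84 bases before the start, chr19:34255438-34255467, minus strand: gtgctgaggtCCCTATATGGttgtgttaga
Acta2, 34 bases before the start, chr19:34255388-34255417, minus strand: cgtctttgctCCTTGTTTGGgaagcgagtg
The MCAT letters CATTCC, on either strand, stood at 2 places in *Tagln2* and at 1 place each in *Acta2*, *Cald1* and *Tpm1*, and in 12.6% of all promoters. Of the windows that held CATTCC only that of *Acta2* also held a CArG box, 84 bases before the start against 146 for CATTCC, so the places did not overlap. Of the members that were higher, *Acta2*, *Cald1*, *Cnn2* and *Myl9* held at least 1 of these sets of letters in the windows searched and *Cnn1*, *Cnn3* and *Tpm2* held neither. *Tagln2* and *Tpm1*, which did not pass the test, held CATTCC. A match is a description of letters, and binding was not measured.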

How the data were processed

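RNA from RANKL-treated marrow cultures of 3 Ano1fl/fl and 3 Ctsk-Cre;Ano1fl/fl mice was hybridised to 6 Agilent one-colour arrays on 1 slide, read in 1 scan. The deposited files hold linear intensity values from Agilent Feature Extraction 10.7.1.1: a processed signal with background and trends removed by the software, and a matrix that equals the uncorrected spot medians. The authors applied the quantile algorithm, per the methods. It was applied here to log2 processed signals with limma 3.58.1 in R 4.3.3. Spots flagged as outliers were set to missing, 14 probes were left out, spots of a probe were averaged, and a gene was read by its brightest probe if well above background on all arrays of a group. Groups were compared with lmFit and eBayes and the Benjamini-Hochberg adjustment over all genes or all probes. On simulated data for this comparison over 20645 genes, 74% of changes of 1 and 90% of changes of 2 on the log2 scale were recovered. The labels name separate mice, and p-values measure only the spread between these samples. Probe positions are those of the array files (mm9). Of 25 member probes, 18 had a RefSeq accession and all 18 matched the member's symbol.

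The genes named are all members with all probes, the actins, and of each gene list the 3 largest fitted rises and falls that passed, with genes never above background. The value of 1 list gene is not reported here. Of the marker lists only some of these are named, and *Myh11* and *Srf* were added for what they do. The members and lists were chosen with earlier results of these data known. Alternatives were 75th percentile scaling, normexp with an offset of 50, the matrix, other filters, the mean of probes, a trended robust fit, the methods' t-test, a replicate block, a 2-fold requirement, and leaving out each array.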

Additional observations from a re-analysis of the deposited data

How the results depend on the processing

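In 16 alternatives, 8 members were higher in every one except the filter asking for all 6 arrays, where 7 were, since *Cnn1* was not tested, and the 2-fold requirement, where 6 were. In all 16, 0 were lower. The methods' t-test gave 8 higher and 0 lower, unadjusted and after Benjamini-Hochberg. Probes higher fell from 12 to 8 with that filter and to 10 with the 2-fold requirement. Leaving out 1 array at a time, members higher stayed at 8, probes higher at 12, and probes lower ran from 1 to 2. Probes lower numbered 2 with normexp and without cKO replicate 2, where *Cald1* probe A_55_P2620849 passed (-0.21 and -0.30), and 0 with the 2-fold requirement, since the *Tpm1* probe fell by less. Differences near 0 changed sign: *Tpm1* probe A_55_P2078680 gave -0.039 with 75th percentile scaling, -0.0062 with the matrix, and from -0.074 to 0.069 leaving out 1 array at a time. *Tpm1* probe A_55_P2187053 gave -0.11 to 0.069 leaving out 1 array at a time, *Tpm1* gave -0.11 with the mean of its probes, and *Tagln2* (probe A_55_P1986296) gave -0.047 to 0.030 leaving out 1 array at a time, above 0 without cKO replicate 3. None of these passed the test, and the cause was not tested.

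Replicate numbers did not pair the samples: same-numbered arrays had correlations of 0.0044, -0.06 and -0.08 in their deviations from the group means, and not every array went best with its own number. With the replicate block the member counts were 8 higher and 0 lower, and over all genes 4200 higher and 5079 lower, against 4839 and 5987. Scaling to the 75th percentile moved the median of all genes from -0.06 to -0.12. The main limits are 3 arrays per group, dim probes whose folds are only bounded, and probes of 1 gene that differ in size of change.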
